A study of Mus musculus with 8 samples.

Results

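Adrenomedullin, its receptor and the receptor's partner proteins were examined in the gravid uterus of the mouse on gestational day 18, near term. The set comprised 6 genes, Adm, Calcrl, Ramp1, Ramp2, Ramp3 and Crcp, and their probe sets were found by the gene symbol in the annotation of the array platform. This gave 9 probe sets of the 28000 in the deposited table, or 6 of the 13121 genes named there, and all 9 had enough signal to be tested. Adm, Calcrl and Ramp1 each had a pair of probe sets and the other genes had a single one. Uterine RNA from 4 Cox-1 KO mice and 4 wild-type mice was hybridized to Affymetrix 430 2.0 arrays, 1 mouse to an array. The Cox-1 KO females lack cyclooxygenase-1, the product of Ptgs1, in every tissue, and are labelled C57BL/6 x Sv129. The wild-type females are labelled C57BL/6. All were aged 6-16 weeks by the labels and no treatment is named. By the methods, the fetuses, membranes and placentas had been taken off the uterus. Because the strain background goes with the genotype, the effect of the deletion and that of the background cannot be told apart.

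Adrenomedullin is a peptide that dilates blood vessels, and in the mouse it is required for the growth of blood and lymphatic vessels of the embryo and placenta. It shares a receptor with calcitonin gene-related peptide (CGRP), which relaxes the uterine muscle of the pregnant rat. That receptor, the calcitonin receptor-like receptor encoded by Calcrl, reaches the cell surface only with a receptor activity-modifying protein (RAMP): Ramp1 makes it a CGRP receptor, whereas Ramp2 or Ramp3 makes it an adrenomedullin receptor. The receptor signals mainly through the stimulatory G protein and cAMP. Crcp encodes the receptor component protein, which helps the receptor couple to that G protein and is also a subunit of RNA polymerase III.

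Promoter sequences of 4 of the 6 genes (Adm, Calcrl, Ramp1 and Ramp3) were found in RefSeq (mouse build GRCm38.p6), each with 250 bases before the transcription start and 50 after it. Those of Ramp3 and Adm are printed here, since Ramp3 had the largest difference between the genotypes among the 6 genes, and Adm is the ligand gene and a known target of hypoxia. Ramp3 lies at chr11:6658283-6658582 on the forward strand, and capitals mark the core of the hypoxia response element (ACGTG or GCGTG) and the GC box (GGGCGG), read on either strand.
Ramp3: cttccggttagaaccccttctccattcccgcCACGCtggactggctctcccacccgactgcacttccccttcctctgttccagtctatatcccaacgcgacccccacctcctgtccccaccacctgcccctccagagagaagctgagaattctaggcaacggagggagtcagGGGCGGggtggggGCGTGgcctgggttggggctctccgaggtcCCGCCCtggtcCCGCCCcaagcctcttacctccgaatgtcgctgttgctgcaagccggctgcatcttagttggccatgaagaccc
Adm lies at chr7:110627407-110627706 on the forward strand, and capitals mark only the hypoxia response core.
Adm: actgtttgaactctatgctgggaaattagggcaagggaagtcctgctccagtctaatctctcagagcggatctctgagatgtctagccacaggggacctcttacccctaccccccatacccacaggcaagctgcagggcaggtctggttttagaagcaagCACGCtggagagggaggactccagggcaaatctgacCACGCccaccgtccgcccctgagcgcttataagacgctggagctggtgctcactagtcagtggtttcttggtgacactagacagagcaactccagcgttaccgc
The Ramp3 window held 3 GC boxes, 78, 35 and 24 bases before the start, and the hypoxia core 219 and 65 bases before it. In the Adm window the hypoxia core stood 90 and 54 bases before the start, a GC box 42 bases and a TATA box (TATAAA or TATAAG, on the gene's strand) 27 bases before it. Adm also held the estrogen response half-site GGTCA, 58 bases before the start, which overlaps the nearer hypoxia core. Calcrl held the hypoxia core 21 bases after its start and a GC box 83 bases before it, while Ramp1 held GGTCA 139 bases before its start and the cAMP response half-site TGACG 10 bases after it. These motifs are common: among 32851 mouse promoters of this length, 43.8% held the hypoxia core, 35.7% the GC box, 40.5% GGTCA, 20.8% TGACG and 12.3% the TATA box. The matches are letters in the window, and no binding was measured.

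The arrays were checked first against the deleted gene. The Ptgs1 probe set 1436448_a_at gave signals of 76 to 136 on the Cox-1 KO arrays and 7048 to 10756 on the wild-type arrays (adjusted p = 5.66e-08, limma). Array medians lay between 731 and 757, no arrays were identical, and 3 of 26444 probe sets differed between the genotypes after Benjamini-Hochberg adjustment. Transcripts typical of yolk sac stood apart on 4 arrays: Apoa1 read 73950, 631, 65189 and 56615 in Cox-1 KO uteri 1 to 4, against 183, 481, 505 and 55059 in wild-type uteri 1 to 4. Ramp3, Ramp2 and the lists whose median changed sign without them are therefore also given without the 4 arrays on which Apoa1 exceeded 10000. The defining transcripts of smooth muscle were strong on every array, their 10 markers summing to 321319 to 343928 in Cox-1 KO uteri and 310311 to 348809 in wild-type uteri.

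Among the 6 genes, the adrenomedullin co-receptor genes Ramp3 and Ramp2 had lower signals in every Cox-1 KO uterus than in any wild-type uterus, by a fitted 20.0% and 10.6%. Neither difference passed the adjusted threshold. The signals of Adm, Calcrl, Ramp1 and Crcp overlapped between the genotypes. None of the 9 probe sets had an adjusted p under 0.05, a level reached by 0.0113% of all probe sets tested. With unadjusted p under 0.05 and lower signal in Cox-1 KO there were 2 of 9, those of Ramp3 and Ramp2, where 5.12% of all probe sets met the same rule, and none with higher signal, where 3.69% did. The Ramp2 value was close to that limit, and the count fell to 1 in 6 of the 8 fits with an array left out. The same pair made up the 2 of 9 with all Cox-1 KO arrays below all wild-type arrays, against 2.91% of all probe sets, and no member had all Cox-1 KO arrays above, against 1.5%. By the thresholds of the study's methods (the methods' t-test at 0.05 without adjustment, and mean signals that differ by a factor of 1.5 or more) none of the 9 was called, against 0.862% of all. Without the condition on the factor, the methods' t-test called Ramp3 alone, against 6.19% of all probe sets.

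**Figure D1:**
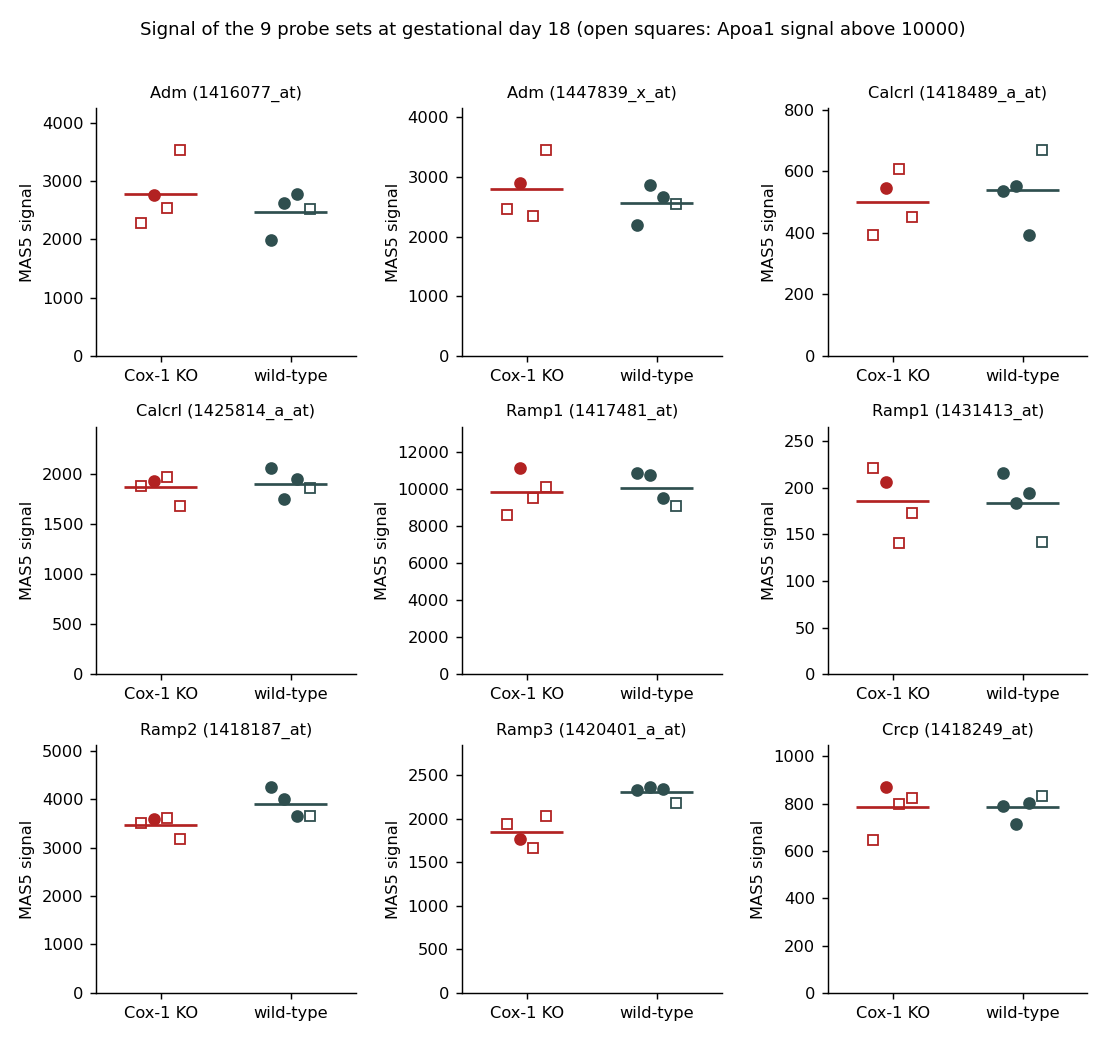
MAS5 signal (linear scale, arbitrary units, axis from 0) of each of the 9 probe sets on 4 Cox-1 KO and 4 wild-type arrays, 1 point per uterus with the group mean as a bar. Open squares are the arrays with Apoa1 above 10000. The groups separate for Ramp3 (1659 to 2026 in Cox-1 KO and 2182 to 2369 in wild-type) and narrowly for Ramp2, and overlap in the other panels.

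Adm encodes the precursor of adrenomedullin. Its probe set 1447839_x_at read 2460, 2905, 2352 and 3457 in the Cox-1 KO uteri, against 2195, 2864, 2658 and 2540 in the wild-type uteri. Cox-1 KO replicate 4 was the highest of all 8 arrays and wild-type replicate 1 the lowest, with the others intermingled. The means were 2794 ± 503 in Cox-1 KO and 2564 ± 280 in wild-type (SD, n = 4 each), and the fitted log2 difference was 0.11 (95% confidence interval -0.16 to 0.39, adjusted p = 0.811, limma). The other probe set, 1416077_at, read 2280, 2768, 2542 and 3543 in Cox-1 KO, against 1995, 2618, 2784 and 2518 in wild-type. It gave the same highest and lowest array and a log2 fold change of 0.16 (interval -0.15 to 0.46, adjusted p = 0.758, limma). The exact two-sided permutation test over the 70 assignments of the arrays gave p = 0.486 for the first and p = 0.429 for the second, where 0.0286 is the smallest value that 4 arrays against 4 allow. Without Cox-1 KO replicate 4 the log2 fold change at 1447839_x_at was 0.005, and without wild-type replicate 1 it was 0.041.

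Calcrl encodes the receptor itself, which binds no ligand of this family at the surface without its partner. The brighter probe set, 1425814_a_at, read 1885, 1931, 1977 and 1680 in the Cox-1 KO uteri and 2061, 1749, 1951 and 1867 in the wild-type uteri. The groups overlapped over most of their range, with means of 1868 ± 131 in Cox-1 KO and 1907 ± 132 in wild-type (SD, n = 4 each). The fitted difference was -0.03 on the log2 scale, with an interval of -0.21 to 0.15 (adjusted p = 0.935, limma). The dimmer probe set, 1418489_a_at, read 393, 544, 606 and 451 in Cox-1 KO, against 536, 551, 392 and 670 in wild-type. Here the replicates spread widely, the interval ran from -0.51 to 0.30 around -0.10, and the sign turned to 0.16 without the arrays high in Apoa1. Calcrl lies on chromosome 2, as does the deleted Ptgs1, with 230 protein-coding genes between them in the RefSeq order.

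Ramp1 makes the receptor selective for CGRP. Its probe set 1417481_at read 8618, 11121, 9486 and 10126 in the Cox-1 KO uteri, against 10845, 10732, 9491 and 9065 in the wild-type uteri. The highest and the lowest array were both Cox-1 KO, and the means were 9838 ± 1055 in Cox-1 KO and 10033 ± 891 in wild-type (SD, n = 4 each). The log2 fold change of -0.03 had an interval of -0.22 to 0.16 (adjusted p = 0.938, limma), and it was 0.11 once the yolk sac transcripts entered as a covariate. A dim second probe set, 1431413_at, read between 141 and 221 in Cox-1 KO and between 142 and 216 in wild-type, and its log2 fold change of 0.01 came with the widest interval of the set, -0.48 to 0.49.

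Ramp2 makes the receptor the main adrenomedullin receptor of blood vessels, and mice that lack it die in midgestation. Probe set 1418187_at read 3517, 3592, 3610 and 3173 in the Cox-1 KO uteri, against 4258, 3997, 3648 and 3656 in the wild-type uteri. All Cox-1 KO values lay below all wild-type values, although the gap between the highest Cox-1 KO array and the lowest wild-type array (3610 in Cox-1 KO and 3648 in wild-type) was small beside the spread of either group. The means were 3473 ± 204 in Cox-1 KO and 3890 ± 295 in wild-type (SD, n = 4 each). The log2 fold change was -0.16 with a standard error of 0.07 and an interval of -0.324 to -0.001, at an unadjusted p = 0.0488 and an adjusted p = 0.565 (limma). The exact permutation p was 0.0286, the smallest possible here. On the arrays high in Apoa1, Ramp2 read 3517, 3610 and 3173 in Cox-1 KO, against 3656 in wild-type. On the others it read 3592 in Cox-1 KO, against 4258, 3997 and 3648 in wild-type. Its unadjusted p exceeded 0.05 in 6 of the 8 fits with an array left out, reaching 0.144 without Cox-1 KO replicate 4, and also with quantile normalization (0.0573), median centring (0.0579), array weights (0.0615), the replicate block (0.0545), no trend (0.083) and the yolk sac covariate (0.235), while it stayed under 0.05 without wild-type replicate 3 (0.0373) or 4 (0.0375). The fold change was -0.11 with the yolk sac covariate and -0.14 without the arrays high in Apoa1, which left a lone Cox-1 KO array. It kept its sign in each setting tried, which the separation of the groups fixes wherever arrays are only left out.

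A further 2 probe sets are annotated to both Ramp2 and Vps25, the next protein-coding gene on chromosome 11, which encodes a subunit of the endosomal sorting complex. They were therefore left out of the 9. The first, 1421051_s_at, read 3604, 3486, 3649 and 3832 in Cox-1 KO, against 3727, 3568, 3818 and 3554 in wild-type, and the groups overlapped (log2 fold change -0.01, interval -0.14 to 0.12). The second, 1428621_a_at, averaged 4365 ± 247 in Cox-1 KO and 4247 ± 294 in wild-type (SD, n = 4 each). Its log2 fold change was 0.04 with an interval of -0.11 to 0.19. Neither of these shared probe sets had the separation seen at 1418187_at. The Ramp2 value therefore rests on 1 probe set.

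Ramp3 also makes the receptor an adrenomedullin receptor, and is known to alter how the receptor is sorted after it enters the cell. Probe set 1420401_a_at read 1938, 1769, 1659 and 2026 in the Cox-1 KO uteri, against 2326, 2369, 2337 and 2182 in the wild-type uteri. The highest Cox-1 KO array, 2026, was below the lowest wild-type array, 2182, and the wild-type values lay close together, with a coefficient of variation of 8.93% in Cox-1 KO and 3.60% in wild-type. The means were 1848 ± 165 in Cox-1 KO and 2304 ± 83.0 in wild-type (SD, n = 4 each). The log2 fold change was -0.32 with a standard error of 0.08 and an interval of -0.50 to -0.15, which corresponds to a signal lower by 20.0% (9.68% to 29.1%). This gave an unadjusted p = 0.00191, rank 145 among the 26444 probe sets, and an adjusted p = 0.348 (limma). The exact permutation p was 0.0286, again the smallest possible. In a piece of whole tissue, fewer cells that express a gene and less RNA per cell cannot be told apart.

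The Ramp3 difference was also read beside the yolk sac transcripts and the vessel markers. On the arrays high in Apoa1, Ramp3 read 1938, 1659 and 2026 in Cox-1 KO, against 2182 in wild-type, and on the others 1769 in Cox-1 KO, against 2326, 2369 and 2337 in wild-type. In both subsets the Cox-1 KO values were the lower ones, which the full separation of the groups makes certain for any subset. Without the arrays high in Apoa1 the log2 fold change was -0.41, where a lone Cox-1 KO array was assumed to vary like the wild-type arrays, and it was -0.31 when the mean of the yolk sac transcripts entered as a covariate. Of 15 markers of blood endothelium, the cells that line vessels and carry much of the Calcrl and Ramp2 in many tissues, 14 were measured. Of these, 5 had higher and 9 lower signals in Cox-1 KO, beside 11249 higher and 15195 lower among all probe sets tested. Their median log2 fold change was -0.02, and their summed signal ran from 28306 to 31014 in Cox-1 KO and from 28884 to 31668 in wild-type. Pecam1, an adhesion molecule of endothelium, averaged 2894 ± 302 in Cox-1 KO and 3527 ± 155 in wild-type (SD, n = 4 each), or -0.29 on the log2 scale (adjusted p = 0.423, limma). Sox18, a transcription factor of blood and lymphatic vessels, had -0.35 (adjusted p = 0.421, limma) and Plvap, a protein of fenestrated endothelium, -0.20 (adjusted p = 0.541, limma). These were the only 3 of the 14 with unadjusted p under 0.05 (limma), where 5.12% of all probe sets were lower at that level. Pecam1 and Sox18 had every Cox-1 KO array below every wild-type array, as 2.91% of all probe sets did. Cdh5, Eng and Vwf had fold changes above 0 (0.22, 0.17 and 0.16). No measured marker was at 0 on any array. For lymphatic endothelium, 2 of 6 measured markers were higher and 4 lower, with a median of -0.07 and sums of 20518 to 21413 in Cox-1 KO and 19658 to 22942 in wild-type. Without the arrays high in Apoa1, 4 of these 6 were higher and 2 lower with a median of 0.09, and without Cox-1 KO replicate 1 there were 3 of each. The blood endothelium list had a median of -0.05 without the arrays high in Apoa1, with 1 marker higher and 1 lower at unadjusted p under 0.05. The part of vessel content in the Ramp3 and Ramp2 values was not tested.

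**Figure D2:**
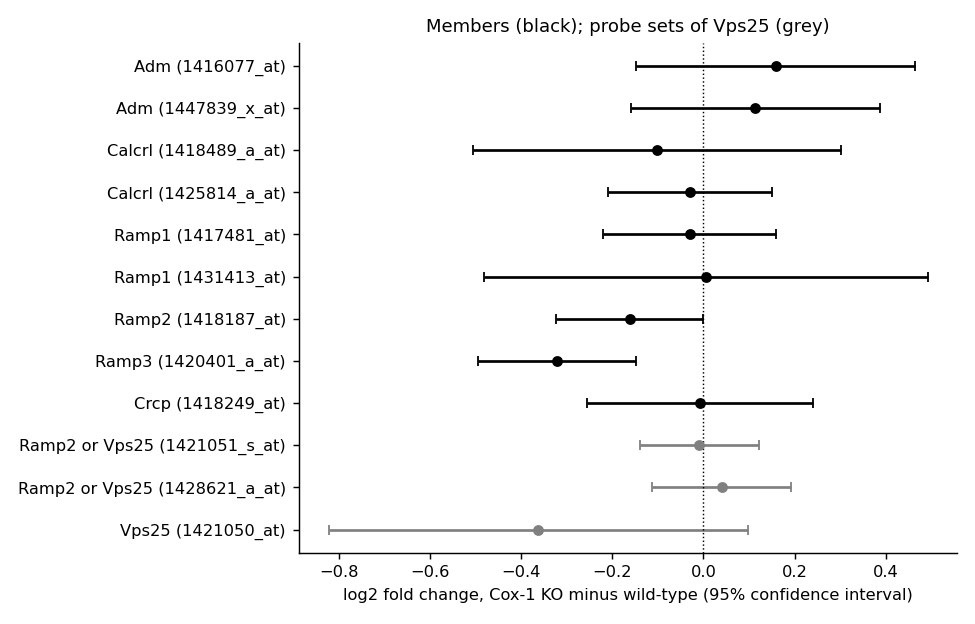
Log2 fold change (Cox-1 KO minus wild-type) of the 9 probe sets in black and of the shared or own probe sets of Vps25 in grey, with 95% confidence intervals from limma. The interval of Ramp3 lies wholly below 0 (-0.50 to -0.15), that of Ramp2 ends at -0.001, and all others span 0.

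Crcp, the receptor component protein, read 645, 872, 798 and 825 in the Cox-1 KO uteri, against 789, 716, 801 and 834 in the wild-type uteri. Both groups averaged 785, with an SD of 98.2 in Cox-1 KO and 49.8 in wild-type, and Cox-1 KO replicates 1 and 2 were the lowest and the highest array. Its log2 fold change was -0.01 with an interval of -0.26 to 0.24 (adjusted p = 0.991, limma). Of 12 other subunits of RNA polymerase III listed, 11 were measured, 3 higher and 8 lower in Cox-1 KO, with a median of -0.04 beside -0.03 over all probe sets. Without wild-type replicate 3 there were 1 higher and 10 lower, with a median of -0.11. Polr3e averaged 1164 ± 99.2 in Cox-1 KO and 1490 ± 142 in wild-type (SD, n = 4 each), with every Cox-1 KO array below every wild-type array (log2 fold change -0.36, adjusted p = 0.404, limma). Polr3f had -0.36 as well (546 ± 72.7 in Cox-1 KO and 708 ± 133 in wild-type, adjusted p = 0.553, limma), and Polr3d had -0.22 (adjusted p = 0.638, limma). Only Polr3e and Polr3f had unadjusted p under 0.05, and the number ran from 1 to 3 with each array left out in turn (1 if either of Cox-1 KO uteri 1 and 4, or either of wild-type uteri 1 and 2, was left out).

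Since the RAMPs compete for 1 receptor, the log2 signal of each was also set against that of Calcrl on the same array. Levels of different probe sets cannot be compared, so only the difference of this quantity between the genotypes is read, as a description. Ramp3 minus Calcrl was 0.04, -0.13, -0.25 and 0.27 in the Cox-1 KO uteri, against 0.18, 0.44, 0.26 and 0.23 in the wild-type uteri. It averaged -0.02 ± 0.23 in Cox-1 KO and 0.27 ± 0.11 in wild-type (SD, n = 4 each), lower by 0.29 in Cox-1 KO, and Cox-1 KO replicate 4 lay inside the wild-type range. Ramp2 minus Calcrl was 0.90, 0.90, 0.87 and 0.92 in Cox-1 KO, against 1.05, 1.19, 0.90 and 0.97 in wild-type. That is a mean of 0.90 ± 0.02 in Cox-1 KO and 1.03 ± 0.12 in wild-type (SD, n = 4 each), with wild-type replicate 3 inside the Cox-1 KO range. Ramp1 minus Calcrl averaged 2.39 ± 0.20 in Cox-1 KO and 2.39 ± 0.16 in wild-type. Between the partners, Ramp3 minus Ramp1 averaged -2.41 ± 0.22 in Cox-1 KO and -2.12 ± 0.10 in wild-type, and Ramp3 minus Ramp2 averaged -0.91 ± 0.21 in Cox-1 KO and -0.75 ± 0.09 in wild-type. All 6 such differences among Calcrl and the RAMPs overlapped between the genotypes, unlike the Ramp3 and Ramp2 signals taken alone.

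**Figure D3:**
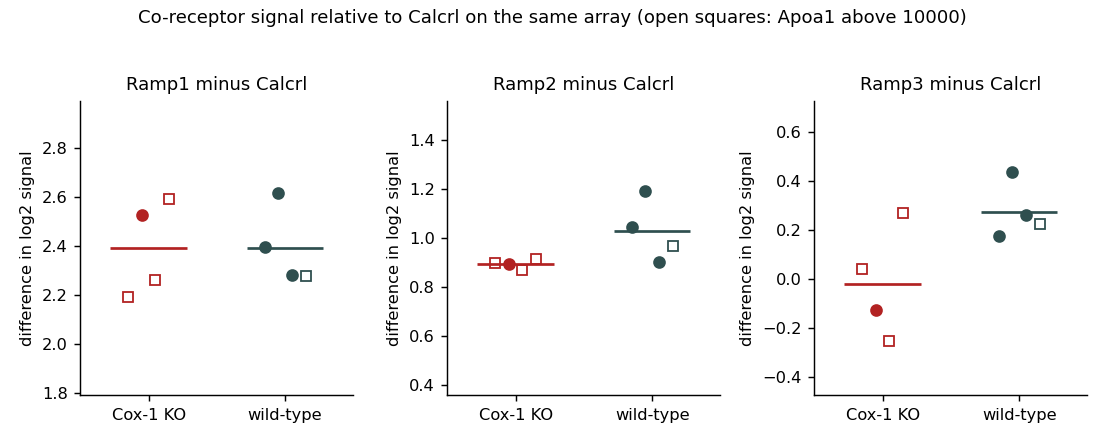
Log2 signal of Ramp1, Ramp2 and Ramp3 minus that of Calcrl on the same array, 1 point per uterus, 4 Cox-1 KO and 4 wild-type, with the mean as a bar and open squares for arrays with Apoa1 above 10000. The 3 vertical axes span the same range and do not start at 0. Ramp3 minus Calcrl averages -0.02 in Cox-1 KO and 0.27 in wild-type, with overlap, and Ramp1 minus Calcrl 2.39 in both.

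The genes around the receptor were described by lists, each gene by its brightest probe set. Over all probe sets tested, 11249 were higher and 15195 lower in Cox-1 KO, with a median log2 fold change of -0.03. At unadjusted p under 0.05 (limma) 975 were higher and 1355 lower. No gene of these lists passed the adjusted threshold. Of 5 peptide ligands of the calcitonin family, only Adm and Calcb, which encodes beta-CGRP, had a probe set with their symbol in the annotation used here, and the others were not analysed here. Calcb was dim, at 79, 166, 184 and 160 in Cox-1 KO and 179, 203, 124 and 136 in wild-type, and the groups overlapped (log2 fold change -0.17, adjusted p = 0.896, limma). Its sign turned to 0.11 without Cox-1 KO replicate 1 and to 0.01 without the arrays high in Apoa1. Of the 7 measured receptors and receptor proteins, 1 was higher and 6 were lower, with a median of -0.03. This split moved without the arrays high in Apoa1, which left a lone Cox-1 KO array. Calcrl then had 0.011, Ramp1 0.105 and Crcp 0.184, against -0.141 for Ramp2 and -0.406 for Ramp3. The other 2 were then 1 higher and 1 lower, with a median of 0.03 in place of -0.03. For the 2 that are not among the 6 genes the groups overlapped: Ackr3, a receptor that takes up adrenomedullin as well as chemokines, averaged 5807 ± 300 in Cox-1 KO and 6127 ± 405 in wild-type (SD, n = 4 each), and Gpr182, an endothelial receptor related to it, averaged 349 ± 82.4 in Cox-1 KO and 349 ± 96.9 in wild-type.

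Enzymes and proteins that process, bind or break down such peptides had 2 of 9 measured members higher and 7 lower, with a median of -0.09, and 2 of the 7 had unadjusted p under 0.05. Without the arrays high in Apoa1, 5 were higher and 4 lower with a median of 0.01, and with each array left out in turn the median ran from -0.16 (without Cox-1 KO replicate 4) to -0.03 (without wild-type replicate 2). Ide, a protease of insulin and other small peptides, read 4173, 5125, 4702 and 4850 in the Cox-1 KO uteri, against 5814, 8090, 7863 and 10264 in the wild-type uteri. Every Cox-1 KO array was below every wild-type array, and the wild-type arrays spread widely. The log2 fold change of Ide was -0.74 with a standard error of 0.14 (adjusted p = 0.173, limma), and without wild-type replicate 1, its lowest wild-type array, it was -0.88 with an adjusted p = 0.0133. Mme, the membrane protease neprilysin, averaged 1963 ± 236 in Cox-1 KO and 2577 ± 518 in wild-type (SD, n = 4 each), or -0.38 on the log2 scale (adjusted p = 0.526, limma). Pcsk6, a proprotein convertase, had -0.16 (adjusted p = 0.574, limma), and Pam, which amidates the carboxyl end of adrenomedullin and CGRP, had -0.53 with a standard error of 0.42 (adjusted p = 0.73, limma).

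Downstream of the receptor, the 28 measured genes of stimulatory G protein and cAMP signalling comprised 13 with higher and 15 with lower signal in Cox-1 KO, with a median of -0.01. That split moved with the arrays used: 7 were higher and 21 lower without wild-type replicate 4, and 15 were higher and 13 lower without the arrays high in Apoa1 (median 0.03). With the yolk sac covariate 18 were higher and 10 lower, 2 of the higher ones at unadjusted p under 0.05. On all 8 arrays none had an unadjusted p under 0.05, and the smallest p belonged to Pde4d, a cAMP phosphodiesterase (-0.16, adjusted p = 0.669, limma). Akap12, an anchoring protein of protein kinase A, had -0.18 (adjusted p = 0.674), and Adcy6, an adenylyl cyclase, had -0.13 (adjusted p = 0.696). Of other relaxant receptors that act through the same G protein, 5 were measured, 1 higher and 4 lower, with a median of -0.12. With each array left out in turn the median ran from -0.30 (without wild-type replicate 3) to -0.08 (without Cox-1 KO replicate 4). It was -0.35 with signals floored at 100. Without the arrays high in Apoa1 it was -0.02, with 2 higher and 3 lower. Rxfp1, the relaxin receptor, read 514, 789, 638 and 644 in the Cox-1 KO uteri, against 1351, 987, 684 and 881 in the wild-type uteri. Cox-1 KO replicate 2 exceeded wild-type replicate 3, and the log2 fold change was -0.57 with a standard error of 0.20 (adjusted p = 0.526, limma). The prostaglandin E2 receptors Ptger2 and Ptger4 had -0.36 (472 ± 37.8 in Cox-1 KO and 612 ± 119 in wild-type, adjusted p = 0.541, limma) and -0.12 (adjusted p = 0.662, limma). Rxfp1 and Ptger2 were the 2 of this list with unadjusted p under 0.05. The number was 0 with the yolk sac covariate and 3 without Cox-1 KO replicate 2. It was 1 if either of Cox-1 KO uteri 1 and 3, or either of wild-type uteri 2 and 3, was left out.

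Adm is a target of hypoxia-inducible factor, and 19 other such targets were measured. In Cox-1 KO, 16 were higher and 3 lower with a median of 0.10, and 4 had unadjusted p under 0.05, all higher. Bnip3, a mitochondrial protein of autophagy and cell death, read 8852, 7865, 8730 and 10275 in Cox-1 KO, against 6112, 6914, 6411 and 7625 in wild-type. Every Cox-1 KO array was above every wild-type array, and the log2 fold change was 0.40 with a standard error of 0.09 (adjusted p = 0.28, limma). Egln3, an oxygen sensor of the pathway, averaged 1488 ± 302 in Cox-1 KO and 1074 ± 219 in wild-type (SD, n = 4 each), or 0.48 on the log2 scale, and Ldha, lactate dehydrogenase A, had 0.21 (adjusted p = 0.53 for each, limma). The fourth was Ndrg1, a stress-response gene named after its value was seen, at 0.20 (adjusted p = 0.538, limma). With the yolk sac covariate the number with unadjusted p under 0.05 was 1 in place of 4. With each array left out in turn it ran from 2 (without Cox-1 KO replicate 1) to 6 (without Cox-1 KO replicate 3). The split was 13 higher and 6 lower without the arrays high in Apoa1, with a median of 0.06. The part of the yolk sac material in this list was not tested further. Vegfa, a further target in the list, had a fold change of -0.09.

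**Figure D4:**
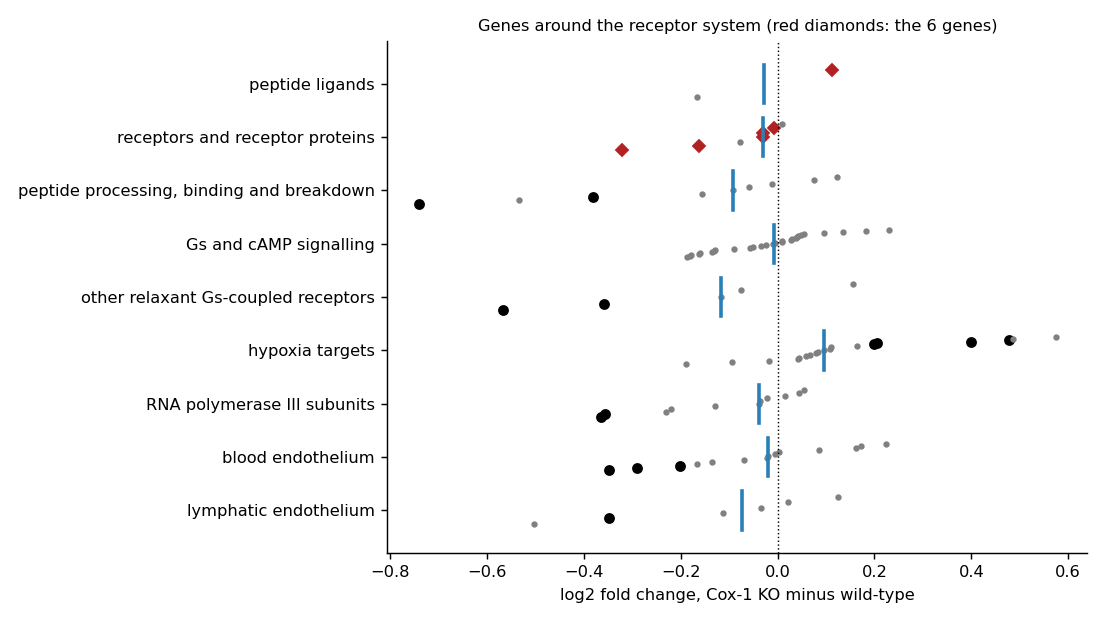
Log2 fold change (Cox-1 KO minus wild-type) of each measured gene in 9 lists around the receptor system, 1 point per gene. Red diamonds are the 6 genes described here, large black points are other genes with unadjusted p under 0.05, and blue lines are list medians, which run from -0.12 (other relaxant receptors) to 0.10 (hypoxia targets). Points within a row are spread vertically only for legibility.

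Genes whose signals followed those of each member most closely over the 8 arrays, once the genotype means were taken out, were found among 22633 probe sets of other genes. These are the highest of many values over few arrays and are given as a description. For Ramp3 they were Frmpd1 (Pearson's r = 0.979, Spearman's rho = 0.976) and Erf (r = 0.971, rho = 0.952). For Ramp2 they were Atr (r = 0.989, rho = 1.0) and Col6a2 (r = 0.972, rho = 1.0). Adm ran closest to Sfrp5 (r = 0.995, rho = 1.0) and 4930486L24Rik (r = 0.979, rho = 0.976), and Calcrl to Aldh9a1 (r = 0.985, rho = 0.929) and Tmem125 (r = 0.985, rho = 0.976). Ramp1 ran closest to Dock2 (r = 0.974, rho = 0.929) and Epm2aip1 (r = 0.970, rho = 0.929), and Crcp to Foxp1 (r = 0.979, rho = 0.952) and Mtmr6 (r = 0.98, rho = 0.667). No gene was among the closest pair of more than 1 member.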

How the data were processed

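The deposited values are signal intensities on a linear scale, which the authors computed with MAS5 and scaled to a target intensity of 1000 on each array. Genes were named through the platform annotation table, except that Ptgs1, which has no symbol there, was named through the study's supplementary list. Signals were floored at 1 and taken to the log2 scale. Probe sets with a signal of at least 100 on at least 4 arrays were kept, 60 array controls were left out, and no further normalization was applied. Cox-1 KO was compared with wild-type over 26444 probe sets with limma 3.58.1 (trend on mean signal) in R 4.3.3, tested on simulated data, with Benjamini-Hochberg adjustment. The methods' t-test, on log2 signal with unequal variances, was run beside it. The exact permutation test is two-sided. Promoter motifs and figures used Python 3.11.15. The members and gene lists were chosen with earlier results of these data known. Named are all members, up to 3 genes a list by smallest p, and the 2 genes most like each member; Pam, Cdh5, Eng, Vwf, Vegfa and Ndrg1 were added after their values were seen. Fold changes of low signals are less precise: the standard error was 0.221 at the dim Ramp1 probe set and 0.086 at the bright one. The number of arrays also limits the precision. Other lists (uterine stroma, epithelium, trophoblast, yolk sac, neutrophils and macrophages) are summarised under other observations. The methods give 129P2 and 8 to 16 weeks in place of the labels' strain and age.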

Additional observations from a re-analysis of the deposited data

How the results depend on the processing

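Since the groups were fully separated for Ramp3 and Ramp2, fits that only left arrays out could not turn their sign. Ramp3 kept its direction in 20 of 20 alternatives, between -0.41 and -0.27 on the log2 scale with adjusted p of at least 0.213. Ramp2 did so in 20 of 20, between -0.19 and -0.11. The unadjusted p of Ramp3 stayed under 0.05 in all of these, and that of Ramp2 in 2 of 8 with an array left out and 5 of 12 others. Adm kept its direction in 21 of 21, between 0.005 (without Cox-1 KO replicate 4) and 0.190. No member passed the adjusted threshold in any setting. The other members lay close to 0 and turned sign. Crcp (-0.01) was 0.004 with quantile normalization, 0.005 with median centring, 0.005 with array weights, 0.027 with yolk sac transcripts as a covariate, 0.18 without the arrays with Apoa1 above 10000, and -0.060 to 0.085 with each array left out in turn. Ramp1 (-0.03) was 0.11 with the covariate, 0.11 without those arrays, 0.005 at its probe set 1431413_at and -0.091 to 0.031 with an array left out. That second probe set (0.005) was 0.206 with the covariate, -0.027 with array weights and -0.11 to 0.13 with an array left out. A filter at 200 removed it. Calcrl (-0.03) was 0.011 without those arrays and -0.071 to 0.020 with an array left out, and its dimmer probe set (-0.10) was 0.16 and -0.245 to 0.013. The cause was not tested. The count of pathway genes past the adjusted threshold was 0, and 0 to 1 with an array left out (Ide, without wild-type replicate 1). With a ratio of 1.2, the methods' thresholds called 1 member (Ramp3). Over all probe sets the adjusted count was 3, against 10 with log2(signal + 32), 12 with signals floored at 100, 11 with median centring, 2 with no trend, 6 with a robust fit, 18 with array weights, 6 without the arrays high in Apoa1, and 2 to 25 with an array left out (25 without wild-type replicate 1). No clear pairing by replicate number was seen. Deviations of same-numbered arrays correlated at -0.25, 0.22, -0.18 and 0.17, and 1 of 4 Cox-1 KO arrays correlated best with its own number. The methods state that samples were processed side by side in balanced groups. Whether same-numbered arrays shared such a group is not stated and was not tested. With the number as a replicate block, Ramp3 had -0.32 (adjusted p = 0.518) and Ramp2 -0.16 (adjusted p = 0.638), and 3 probe sets in all were called. Nothing tells whether faint signals near the filter are above background, as no detection calls were used.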

Other observations

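Other cell types of the gravid uterus were described by marker lists on the same arrays. All 8 measured markers of uterine epithelium had higher signals in Cox-1 KO, with a median log2 fold change of 0.18 and summed signals of 128559 to 150816 in Cox-1 KO and 92241 to 137956 in wild-type, and Krt18, a keratin, was the only one with unadjusted p under 0.05 (0.25, adjusted p = 0.538, limma). Without wild-type replicate 1, or with array weights, 6 were higher and 2 lower, with medians of 0.09 and 0.15. With the yolk sac covariate 7 were higher and 1 lower, with a median of 0.08 and none at unadjusted p under 0.05. Without the arrays high in Apoa1, 7 epithelial markers were measured, all higher, with a median of 0.15. Of 8 genes of uterine stroma and hormone receptors, 2 were higher and 6 lower (median -0.06), with a median of -0.02 without Cox-1 KO replicate 1, and Esr1, the estrogen receptor, had -0.16 (adjusted p = 0.544, limma). Smooth muscle markers were 3 higher and 7 lower (median -0.06), with Smtn at -0.13 and Synpo2 at -0.21 (adjusted p = 0.538 and 0.553, limma). With quantile normalization these markers were 1 higher and 9 lower, with a median of -0.11. The number with unadjusted p under 0.05 (limma) was then 4 in place of 2, and it was 0 with no trend. Among 7 measured markers of neutrophils and macrophages, 5 were higher and 2 lower with a median of 0.16, and without wild-type replicate 1 there were 4 higher and 3 lower with a median of 0.09. S100a9, a calcium-binding protein of neutrophils, averaged 350 ± 80.6 in Cox-1 KO and 138 ± 25.6 in wild-type (SD, n = 4 each), or 1.34 on the log2 scale (adjusted p = 0.097, limma). Of 4 measured trophoblast markers, 3 were higher and 1 lower, all overlapping between the genotypes, with a median of 0.32. Without wild-type replicate 1 there were 2 of each and the median was -0.08. The trophoblast marker Tpbpa had signal on every array. It read 17387, 15619, 16819 and 13871 in the Cox-1 KO uteri, against 5604, 15962, 18147 and 13103 in the wild-type uteri. All 14 measured genes of yolk sac, fetal liver or fetal red cells were higher in Cox-1 KO, with a median of 3.78 that goes with the 3 Cox-1 KO arrays high in Apoa1. Without the arrays high in Apoa1, which left a lone Cox-1 KO array, 12 were measured. Of these, 10 were higher and 2 lower, with a median of 0.74. The numbers with unadjusted p under 0.05 in these lists moved with single arrays: the smooth muscle count of 2 ran from 0 to 3 with each array left out in turn (0 if Cox-1 KO uterus 3, Cox-1 KO uterus 4 or wild-type uterus 2 was left out) and was 0 without the arrays high in Apoa1, and the epithelial count of 1 from 0 to 4 (4 without wild-type replicate 4).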
